A study of Ovis aries with 91 samples.

Results

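A group of 17 sheep genes had lower RNA levels in the posterior left atrium of sheep in transition to atrial fibrillation, while their average over paced sheep and both atrial appendages stayed close to control. They were chosen from the values themselves. The mean log2 CPM in the posterior left atrium of transition sheep had to lie at least 0.8 below that of control sheep, with a mean level of 1 or more. In whole tissue and in cardiomyocytes of the appendages, the mean of transition and chronic sheep, taken over both sides, had to lie within 0.3 of control, and the left and right appendages within 0.4 of each other. CPM is the number of counts after scaling a library to a common total, and a log2 difference of -1 is a halving. Of 12141 genes in the posterior left atrium table, 11335 passed the level limit and 495 of these passed the change limit. The whole tissue limits left 70 genes and the cardiomyocyte limits left the 17.

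Transition and chronic sheep had their right atrium paced fast by an implanted device to induce atrial fibrillation, in which the atria beat rapidly and without order. In the posterior left atrium (PLA), whole tissue came from 6 transition sheep and 6 control sheep. In the left and right atrial appendages (LAA and RAA), whole tissue and isolated cardiomyocytes, the contracting muscle cells, came each from 3 control, 3 transition and 3 chronic sheep. The series held 18 sheep in all, and 5 of them, transition sheep D24 and D27 and control sheep S3, S4 and C1, gave samples to every table. Control sheep were labelled sham, except C1, whose condition was labelled control and whose columns were called sham. Sheep are named here by the sheep ID in the labels, which differs from the PLA column names: the PLA column called S3_PLA belongs to sheep C1, S1_PLA to sheep S3 and S2_PLA to sheep S4. Of the PLA transition sheep, 4 had G numbers and samples titled saline, and 2 had D names. Of the PLA controls, 3 had G numbers and 3 had S or C names. The labels used here give neither age nor the length of pacing.

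The posterior left atrium is the wall between the openings of the pulmonary veins, a region where triggers of atrial fibrillation often arise and which ablation procedures isolate. The appendages are pouches at the front of each atrium, and they are the part most often sampled because surgeons can reach them. Whole atrial tissue holds fibroblasts, vessel cells, nerve and immune cells beside cardiomyocytes, so that its RNA is a mixture. In such bulk samples fewer cells of a type and less RNA per cell cannot be told apart.

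Genes appear in the files as Ensembl sheep IDs without names. A search for these IDs in the reference annotation found 0 symbols, so roles and pathways of the 17 genes are not given, their sequences are not shown, and the tissue labels could not be checked against marker genes. No more than 2 IDs are printed for a direction of a comparison.

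The 17 genes had low to middle levels. Their mean level over the 12 PLA samples lay between 1.02 and 4.34 log2 CPM, with a median of 2.32, against a median of 4.13 log2 CPM over the 12035 genes tested there. In whole tissue of the appendages their median level was 2.53, and in cardiomyocytes 1.87. The reads behind these values could be recovered for the appendages, which held 6.24e+06 to 2.24e+07 reads per library in whole tissue and 5.31e+06 to 1.24e+07 in cardiomyocytes. Each value of the 17 genes rested there on 11 to 1255 reads in whole tissue, with a median of 55.5, and on 4 to 584 reads in cardiomyocytes, with a median of 30. The depth behind the PLA values is unknown.

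ENSOARG00000008277 had the lowest PLA change of the 17 and also the highest level. It stood at 3.89, 3.29, 3.96, 3.95, 3.62 and 3.63 log2 CPM in transition sheep G5, G13, G34, G26, D24 and D27, against 4.67, 5.21, 4.91, 5.06, 4.99 and 4.88 in control sheep G21, G32, G36, S3, S4 and C1. Every transition sheep lay below every control sheep, and the highest transition value was 0.71 below the lowest control value, the widest gap among the 17. The means were 3.73 ± 0.26 in transition sheep and 4.95 ± 0.18 in controls (SD, n = 6 each), a log2 difference of -1.23, so that transition sheep held 0.427 of the control level. This difference chose the gene and is given as a description.

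ENSOARG00000003548 came second by the size of its change, at -1.12, and is different in kind. It stood at 1.05, -0.11, 0.87, -2.10, 0.85 and 2.39 log2 CPM in transition sheep G5, G13, G34, G26, D24 and D27, against 1.89, 2.24, 2.95, 0.83, 1.24 and 0.51 in control sheep G21, G32, G36, S3, S4 and C1. The groups overlapped between 0.51 and 2.39. D27 was above every control but G36, while G26 and G13 were the lowest of all. Its change in the limma model of state and set of sheep was -0.64 without G26 and -1.70 without D27.

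Over the 17 genes the PLA changes lay between -1.23 and -0.82 with a median of -0.90, which is 0.427 to 0.566 of the control level with a median of 0.536. The 3 genes just inside the limit of -0.8 were at -0.83, -0.82 and -0.82. The 3 genes just outside it that met every other limit were at -0.79, -0.79 and -0.77, so no gap marks the edge of the group. With control sheep C1 left out of the appendages and the PLA, 15 genes met the rule, and 5 of them were among the 17. Among all tested PLA genes the median change was -0.01, and 676 had a change of -0.8 or lower against 378 with a change of 0.8 or higher.

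In 7 of the 17 genes every transition sheep lay below every control sheep, which held for 3.28% of all tested PLA genes, and in the other 10 the groups overlapped. In a limma model with state and the 2 sets of sheep (G numbers or other names), 12 of the 17 were called lower at an adjusted p of 0.05 (Benjamini-Hochberg). That model called 8.68% of tested genes lower and 17.5% in either direction. The rule used this contrast, so neither count says anything beyond the choice of the genes.

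**Figure D1:**
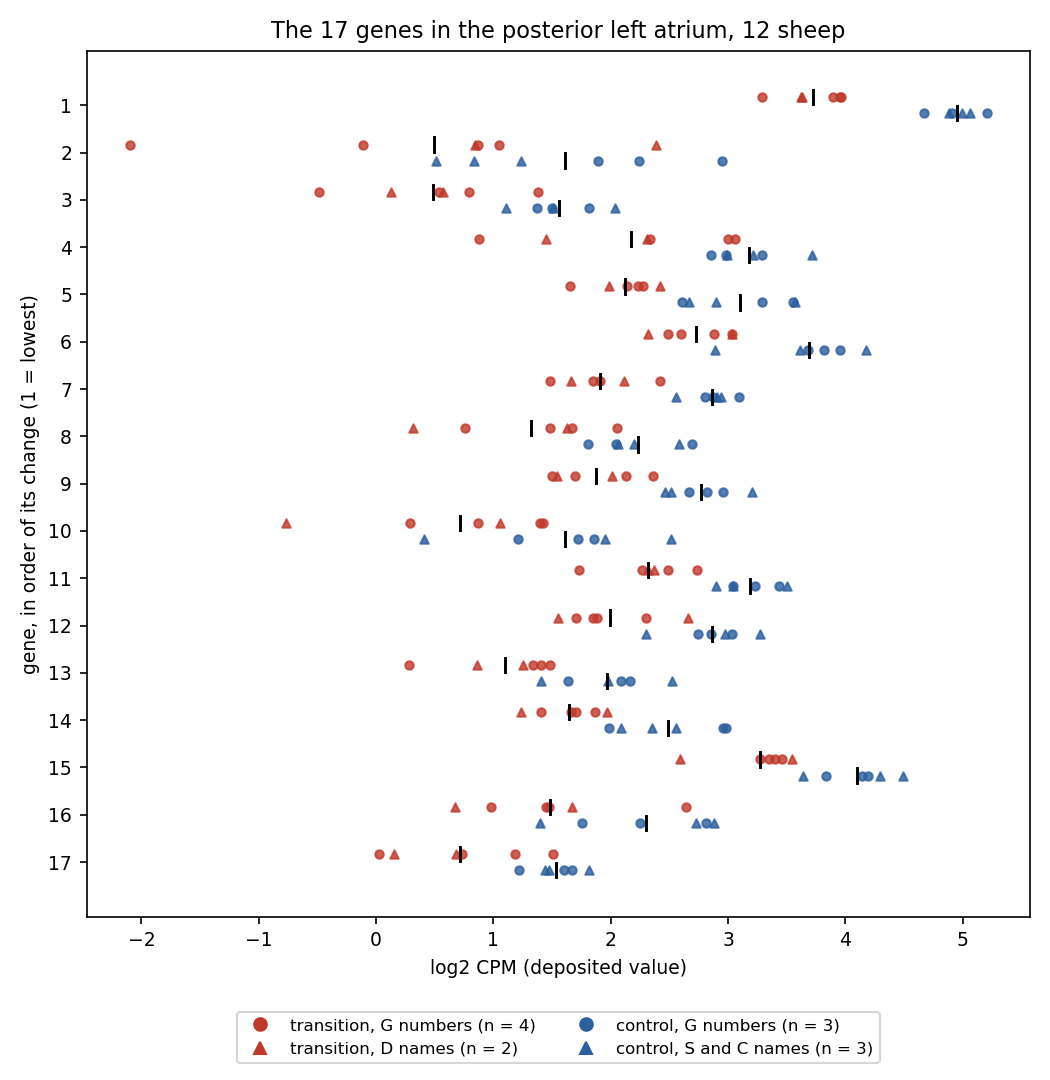
Deposited log2 CPM of the 17 genes in the posterior left atrium of 6 transition sheep (red) and 6 control sheep (blue), 1 gene per row in order of its change, with circles for sheep with G numbers, triangles for the others and a black line at each group mean. The first row is ENSOARG00000008277, whose groups lie 0.71 apart, and the second is ENSOARG00000003548, whose transition sheep spread between -2.10 and 2.39.

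The lower level was shared by all transition sheep, which the choice of the genes by the mean of these sheep favours. Relative to the control mean of each gene, the median of the 17 genes was -0.71 in G5, -1.08 in G13, -0.74 in G34, -0.96 in G26, -0.87 in D24 and -1.11 in D27. In control sheep it was -0.05 in G21, 0.19 in G32, -0.04 in G36, 0.11 in S3, -0.05 in S4 and -0.40 in C1. The sheep of both states did not overlap in this median, which the choice of the genes favours, and C1 lay nearest to the transition sheep. In each transition sheep 16 or 17 of the 17 genes were below their control mean, against 3 to 12 in each control sheep. Over all tested genes, which were not chosen by their change, the share below the control mean was 49.2% to 51.5% in transition sheep and 48.1% to 49.7% in controls.

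No single sheep was lowest for all of them. G13 was the lowest of the 12 sheep for 6 genes, D27 for 4, D24 for 3, and G5 and G26 for 2 each. Among controls S3 was the highest for 6 genes. The median SD of the 17 genes between sheep was 0.412 in transition sheep and 0.327 in controls, and 14 of the 17 had the larger SD in transition sheep. Of the 5749 tested genes within the same range of mean level, 52.6% had the larger SD in transition sheep, with median SDs of 0.304 in transition sheep and 0.287 in controls. The rule used the same values and chose genes with lower levels in transition sheep, so these SDs are a description. The part of the choice and of the level in them was not tested.

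Other properties of the PLA columns moved with the state. The CPM values of a sample summed to 977954 to 1088204 in transition sheep and 910525 to 965407 in controls, with no overlap. The 10 highest genes held 18.2% to 20.8% of that sum in transition sheep and 16.7% to 18.4% in controls, and 196 to 336 genes were below 0 log2 CPM in transition sheep against 145 to 192 in controls. The part of these properties in the result was not tested. With each column scaled to the same sum, an alternative chosen after seeing the data, 36 genes in place of 17 met the rule.

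**Figure D2:**
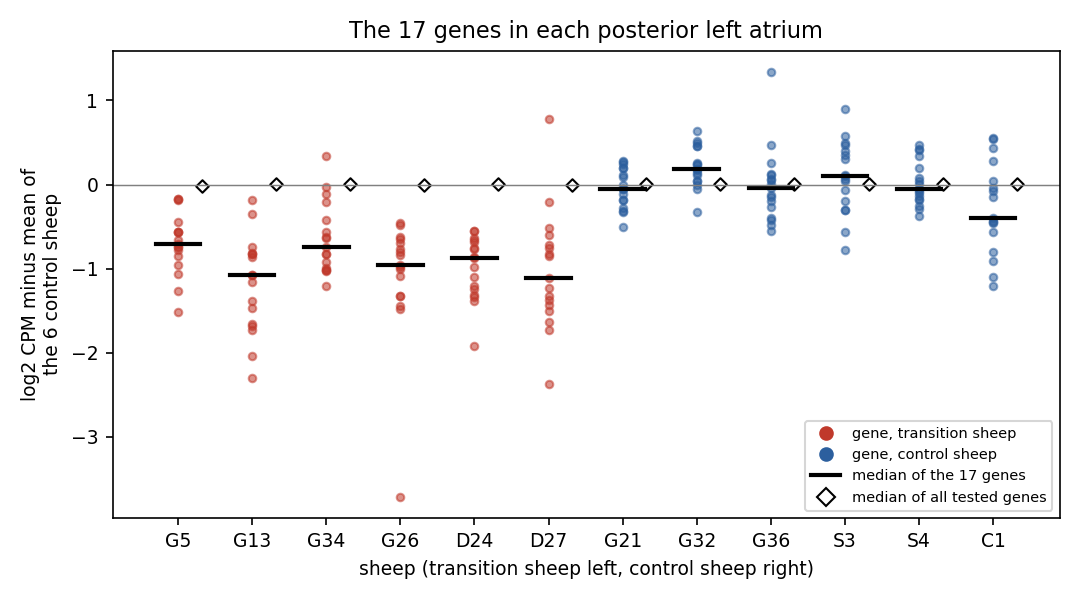
Each of the 17 genes (points) in each posterior left atrium as log2 CPM minus the mean of the 6 control sheep, with the median of the 17 genes (black line) and of all tested genes (diamond). Medians run from -1.11 to -0.71 in transition sheep (left) and from -0.40 to 0.19 in control sheep (right), while the diamonds stay near 0.

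Sheep with G numbers and the others were compared next, since their technical replicate labels differ and only the transition sheep with G numbers were titled saline. Within the G sheep, 4 transition against 3 control, the median change of the 17 genes was -0.93 and all 17 were below 0. Within the other sheep, 2 transition against 3 control, the median was -0.95 and 16 were below 0. The changes were at -0.8 or lower in 11 genes among G sheep and in 14 among the others. Since both subsets entered the rule, their sign is no independent support.

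The difference between these within-set changes was not used by the rule and could be tested. In limma 0 of the 17 genes were called at an adjusted p of 0.05, while 1 of 12035 genes, or 0.00831%, was called. At an unadjusted p of 0.05 the counts were 1 of the 17 and 441 genes, or 3.66%. The median difference of the 17 genes, G sheep minus the others, was 0.07. The 1 gene was ENSOARG00000003548, chosen for naming after its values were seen, with a change of -2.43 among G sheep and 0.76 among the others. Its difference of -3.19 ± 1.03 (SE) had an unadjusted p of 0.00861 and an adjusted p of 0.996 in limma, and so it failed the correction. The deposited PLA values carry almost no mean difference between the sets, as 0.465% of genes had a p under 0.1 for it in limma and 17.7% a p over 0.9. Whether a step before deposit took such a difference out is not recorded in the sources used here and was not tested.

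The appendages show where the averaging of the rule matters. The average of transition and chronic sheep minus control lay between -0.28 and 0.27 for the 17 genes in whole tissue, and between -0.26 and 0.19 in cardiomyocytes, as the rule demands. State by state the genes were less even. In LAA whole tissue of transition sheep the median change was 0.18, with 4 of the 17 below 0. In RAA whole tissue of the same sheep the median was -0.32 and 14 of the 17 were below 0. Every transition sheep lay below every control sheep there for 5 of the genes, against 9.92% of tested genes. The same held for 0 of the 17 in LAA whole tissue, 2 in LAA cardiomyocytes and 0 in RAA cardiomyocytes. The shares of tested genes were 12.1%, 12.6% and 7.65%, in that order.

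In cardiomyocytes of transition sheep the median change was -0.36 in the LAA, with 14 genes below 0 and 1 at -0.8 or lower, and -0.15 in the RAA, with 12 below 0. In chronic sheep the medians were 0.01 in LAA whole tissue, -0.20 in RAA whole tissue, -0.24 in LAA cardiomyocytes and 0.11 in RAA cardiomyocytes. The medians over all tested genes stayed between -0.02 and 0.01 in the 9 comparisons. The changes in appendages of transition sheep were thus smaller than in the PLA, but below 0 for most of the genes in 3 of 4 sample types. Whether the PLA change differs from that in the appendages was not tested, as the tables were normalised separately and the rule fixed both.

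The same 5 sheep can be followed through all regions. There, with D24 and D27 against S3, S4 and C1, the median change of the 17 genes was -0.95 in the PLA, 0.26 in LAA whole tissue, -0.42 in RAA whole tissue, -0.43 in LAA cardiomyocytes and -0.52 in RAA cardiomyocytes. Changes of -0.8 or lower were seen in 14 genes in the PLA, 0 in LAA whole tissue, 1 in RAA whole tissue, 5 in LAA cardiomyocytes and 4 in RAA cardiomyocytes. In these animals changes of that size thus occurred in appendage cardiomyocytes too. With transition sheep D23 included, they were seen in 1 gene in LAA cardiomyocytes and 0 in RAA cardiomyocytes. The share of all genes with changes of that size in cardiomyocytes was not counted.

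**Figure D3:**
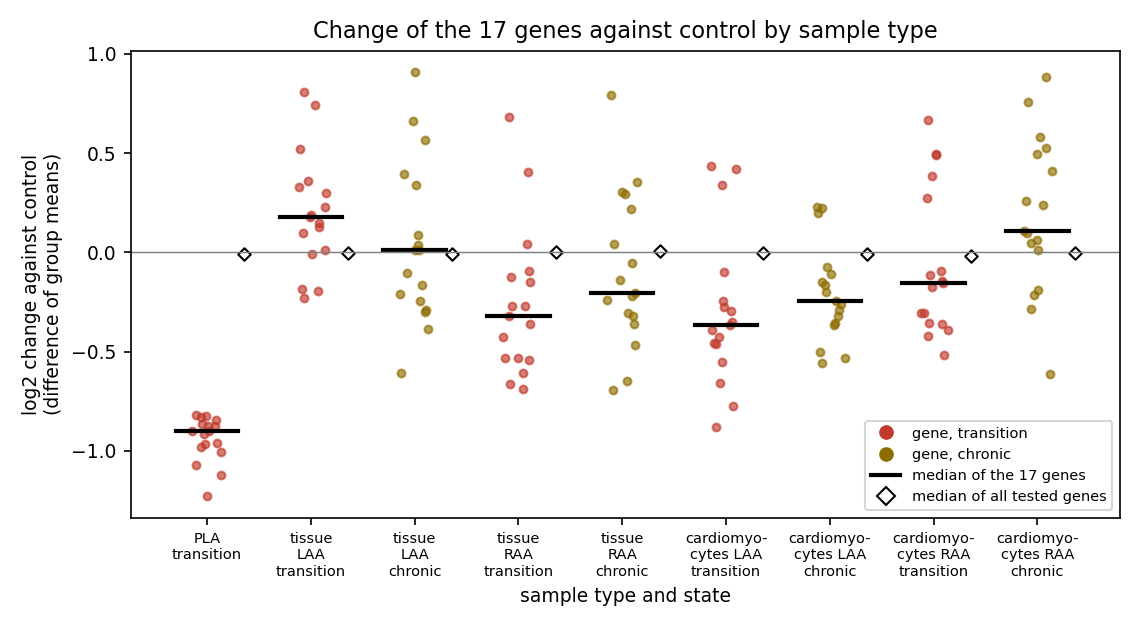
Log2 change against control (difference of group means) of the 17 genes (points) by sample type, for transition (red) and chronic (ochre) sheep, with the median of the 17 genes (black line) and of all tested genes (diamond). The PLA changes, which the rule fixed, lie between -1.23 and -0.82, and the appendage medians between -0.36 and 0.18.

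Single sheep carried part of the cardiomyocyte pattern. Relative to the control mean, the median of the 17 genes in RAA cardiomyocytes was -0.59 in transition sheep D27, -0.47 in D24 and 0.49 in D23. In LAA cardiomyocytes it was -0.72 in D27, -0.28 in D24 and -0.13 in D23. D27 was the lowest of the 3 transition sheep on both sides, and D23, which gave no PLA sample, was on the other side of the control mean in the RAA. In RAA whole tissue D27 was again the lowest, at -0.57, against -0.16 in D24 and -0.22 in D30.

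Levels in the PLA were set beside those in the appendages of the same sheep, as differences between tables normalised separately. Since the rule chose low PLA values in transition sheep and an even average in the appendages, it favours lower differences in transition sheep, and they are given as a description. The median over the 17 genes of PLA minus LAA whole tissue was -1.23 in D24 and -0.84 in D27, against 0.08 in S3, -0.04 in S4 and -0.31 in C1. In transition sheep 17 and 16 of the 17 genes were lower in the PLA, in controls 7 to 10. For all genes the median difference was -0.16 in transition sheep and -0.15 in controls.

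Against RAA whole tissue the median of the 17 genes was -1.08 in D24 and -0.83 in D27, and -0.29 in S3, -0.26 in S4 and -0.44 in C1. In control sheep 13 to 16 of the 17 were lower in the PLA than in the RAA. Over all genes the median of PLA minus RAA was -0.15 in transition sheep and -0.13 in controls, so most genes were lower in the PLA in this comparison too. For ENSOARG00000008277, chosen for its PLA change, the level in D24 and D27 was 3.62 and 3.63 in the PLA and 5.84 and 5.01 in LAA whole tissue. In S3, S4 and C1 it was 5.06, 4.99 and 4.88 in the PLA and 4.77, 4.96 and 5.19 in LAA whole tissue. Only the PLA samples of the transition sheep among these were below 4.

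**Figure D4:**
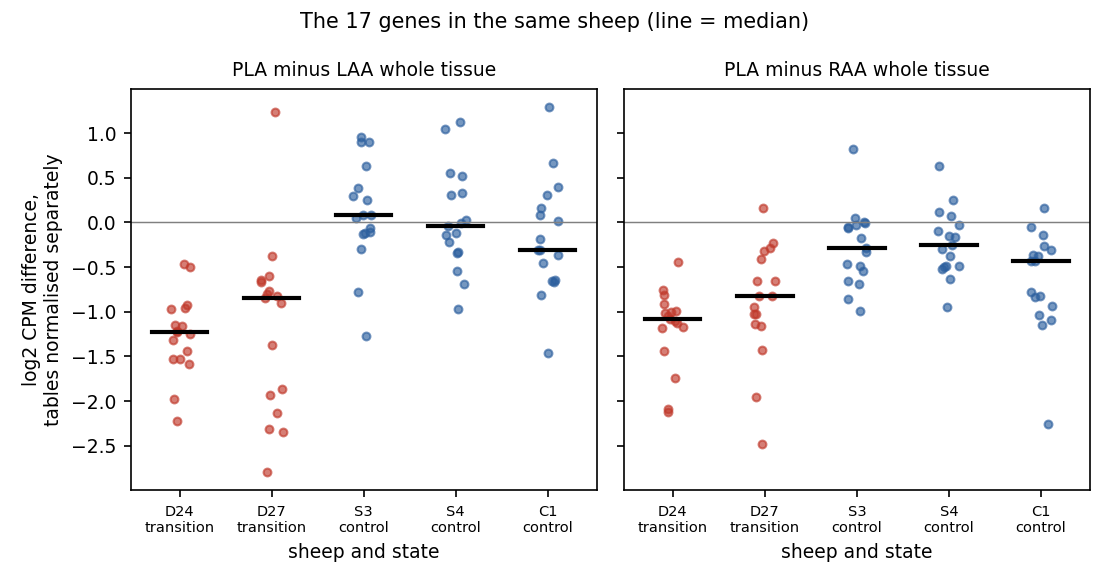
Posterior left atrium minus appendage whole tissue, in log2 CPM, for the 17 genes (points) in the 5 sheep that gave both, with the median as a black line; the LAA is on the left and the RAA on the right. Against the LAA the medians are -1.23 and -0.84 in transition sheep and -0.31 to 0.08 in control sheep.

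Levels of these genes were mostly higher in whole tissue than in cardiomyocytes. In the 7 sheep that gave both, whole tissue minus cardiomyocytes had a median over the 17 genes of 0.82 in the LAA and 0.74 in the RAA, against 0.34 and 0.36 over all 11796 genes compared. On average over sheep 15 of the 17 were higher in whole tissue in the LAA and 16 in the RAA, as were 77.0% and 74.2% of all genes. They were higher in every one of the 7 sheep for 9 genes in the LAA and 10 in the RAA, which held for 41.2% and 37.0% of all genes. The 2 tables were normalised separately and no test was made between them.

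Chronic sheep were compared with transition sheep, a contrast that the rule did not use. In whole tissue 0 of the 17 genes were called at an adjusted p of 0.05 in limma, against 14 of 12333 genes, or 0.114%. At an unadjusted p of 0.05 it was 0 of the 17 against 10.8% of all genes, and with voom weights on the recovered reads 0 of the 17 were called as well. The changes, averaged over both appendages, lay between -0.42 and 0.41, with a median of 0.00 and standard errors of 0.17 to 0.53.

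In cardiomyocytes the same contrast called 0 of the 17 genes, against 3 of 12279 genes, or 0.0244%, and 0 of the 17 with voom weights. At an unadjusted p of 0.05 it was 2 of the 17, against 8.32% of all genes. The 17 changes had a median of 0.18, with 14 above 0, against -0.01 over all genes. That median was 0.55 without transition sheep D23 and 0.03 without transition sheep D27, so its size rests on these sheep.

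The 2 genes were named after their values were seen. ENSOARG00000000344 was 0.67 ± 0.30 (SE) higher in chronic than in transition sheep, with an adjusted p of 0.588 in limma. In LAA cardiomyocytes it stood at 3.50, 3.38 and 3.62 log2 CPM in control sheep S4, S3 and C1, at 3.06, 3.26 and 1.86 in transition sheep D23, D24 and D27, and at 3.43, 3.33 and 3.12 in chronic sheep D16, D19 and D20. Without D27, the sheep in which the gene was also lowest in the PLA, the difference was 0.31. ENSOARG00000003548 differed by -0.94 ± 0.44 (SE), with an adjusted p of 0.598 in limma. Its difference was -0.43 without chronic sheep D16 and -1.46 without chronic sheep D19.

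The other contrast outside the rule asks whether pacing moved a gene differently in the 2 appendages. It is the paced change (mean of transition and chronic minus control) in the LAA minus that in the RAA. The rule bounds the average over both sides to within 0.3 of 0 and leaves the difference between the sides free. In whole tissue 0 of the 17 genes were called in limma, against 6 of 12333, or 0.0486%, and 0 of the 17 with voom weights. At an unadjusted p of 0.05 it was 3 of the 17, all higher in the LAA, against 1041 genes, or 8.44%. The median over the 17 genes was 0.26, with 13 above 0, and over all genes -0.02.

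ENSOARG00000007278 had the lowest unadjusted p of the 17 in this contrast. In LAA whole tissue it stood at 2.08, 2.71 and 2.76 log2 CPM in control sheep S3, S4 and C1, at 3.53, 3.04 and 2.55 in transition sheep D24, D27 and D30, and at 4.05, 3.79 and 2.44 in chronic sheep D16, D15 and D19. In RAA whole tissue it stood at 3.97, 3.53 and 3.45 in these control sheep, at 3.29, 2.98 and 2.85 in the transition sheep and at 3.58, 3.13 and 3.16 in the chronic sheep. In the RAA all transition sheep were below all controls, as they were for 9.92% of tested genes, while in the LAA the groups overlapped through D30 and D19. The difference of changes was 1.20 ± 0.37 (SE), with an unadjusted p of 0.00459 and an adjusted p of 0.349 in limma.

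ENSOARG00000016640 came next. In LAA whole tissue its means were 2.57 ± 0.70 in control, 3.38 ± 0.70 in transition and 3.24 ± 0.59 in chronic sheep, and in RAA whole tissue 3.55 ± 0.15 in control, 3.02 ± 0.55 in transition and 3.09 ± 0.24 in chronic sheep (SD, n = 3 each). All 6 paced sheep lay below all controls in the RAA, at 2.39 to 3.42 against 3.44 to 3.72. The share of all genes in which they did so was not counted. The difference of changes was 1.24 ± 0.40 (SE), with an adjusted p of 0.390 in limma. Both genes were named after their values were seen, and neither passed the test over all genes.

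In cardiomyocytes most of the genes had the other sign in this contrast. In limma 0 of the 17 genes were called, against 3 of 12279, or 0.0244%, and 0 of the 17 with voom weights. At an unadjusted p of 0.05 it was 3 of the 17, all lower in the LAA, against 1432 genes, or 11.7%. The median over the 17 genes was -0.37, with 14 below 0, and over all genes 0.01. Without control sheep C1 it was -0.20. The share of 3 in 17 was of the order of this background share, and whether whole tissue and cardiomyocytes differ was not tested.

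For ENSOARG00000008277 the cardiomyocyte difference was -0.81 ± 0.29 (SE), with an unadjusted p of 0.0123 and an adjusted p of 0.314 in limma. In LAA cardiomyocytes it stood at 4.72, 4.21 and 4.45 log2 CPM in control sheep S4, S3 and C1, at 4.12, 4.61 and 3.47 in transition sheep D23, D24 and D27, and at 4.12, 4.09 and 4.40 in chronic sheep D16, D19 and D20. In RAA cardiomyocytes it stood at 4.16, 3.57 and 4.14 in these control sheep, at 4.88, 4.92 and 3.23 in the transition sheep and at 4.53, 4.60 and 4.49 in the chronic sheep. In the RAA all chronic sheep lay above all controls, as they did for 10.7% of tested genes, and D27 lay below the controls. In the LAA the groups overlapped. This gene rested on 63 to 356 reads per cardiomyocyte library.

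ENSOARG00000007278, higher on the left in whole tissue, had a cardiomyocyte difference of -1.16 ± 0.51 (SE), with an adjusted p of 0.395 in limma. Without control sheep S4 the difference was -0.37. Its cardiomyocyte values rested on 4 to 39 reads per library, so counting error alone is large there, against 46 to 229 reads in whole tissue. In the whole tissue and cardiomyocyte tables its highest group means were 3.65 ± 0.28 log2 CPM, in RAA whole tissue of controls, and 1.20 ± 0.38, in RAA cardiomyocytes of chronic sheep (SD, n = 3 each).

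**Figure D5:**
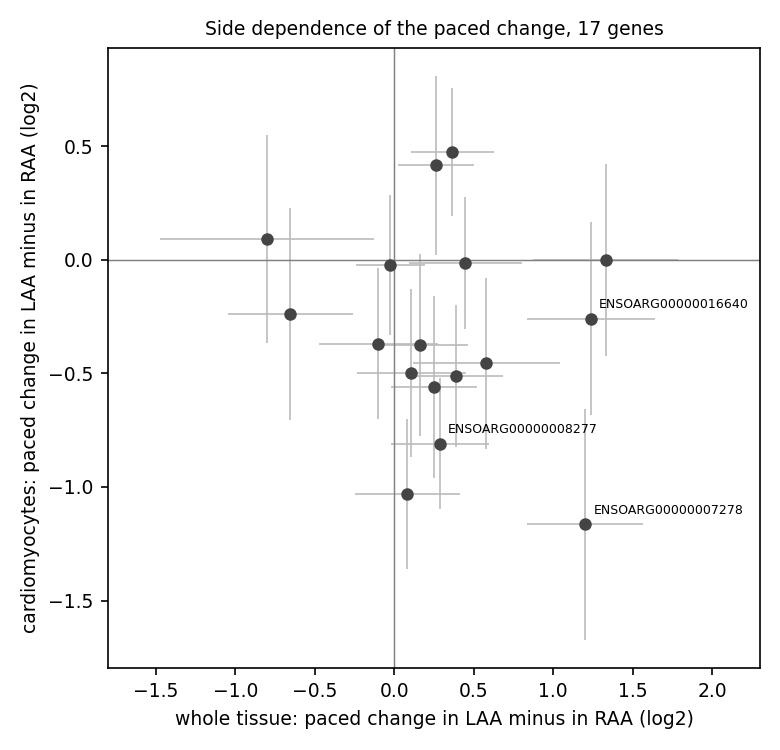
Paced change in the LAA minus that in the RAA (log2), in whole tissue (horizontal) and cardiomyocytes (vertical), for the 17 genes, with bars of 1 standard error from limma. In whole tissue 13 genes are above 0 and in cardiomyocytes 14 are below 0, and 0 pass an adjusted p of 0.05 in either table.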

How the data were processed

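Libraries were made with the Illumina NEBNext Ultra kit, per the labels' protocols, and bcl2fastq, cutadapt, RSEM and limma are listed in the submitters' processing notes. For aligner, genome build, annotation and strand use nothing is given in the sources used here. The authors deposited log2 CPM values, 1 column per sheep and region, in 3 tables that were normalised separately; 0 columns lacked a matching sample. Of the appendage values 100% gave whole reads within 0.05 reads. Whether PLA values were adjusted further before deposit is not recorded in the sources used here.

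Members and lists were chosen with earlier results of these data known. Lists of symbols for pathways and cell types could not be used, as 0 IDs matched. Genes with a mean log2 CPM under 0 were left out of tests; all 17 genes passed. Limma 3.58.1 (R 4.3.3, mean-variance trend) was fitted to each whole table. Appendage models held 6 group means with sheep as a random effect, paired by the sheep names in the labels (consensus correlation 0.294 in whole tissue and 0.470 in cardiomyocytes); the PLA model held state and set. Adjustment was by Benjamini-Hochberg over a table, with a threshold of 0.05. The p-values weigh a change against its spread over these sheep. For the side difference that spread came from all appendage samples of a table, with the consensus correlation shared by all genes. Only the alternative with sheep as a fixed block used the spread of the left-right difference within sheep. Count models were not run, because the files hold log2 values; voom on the recovered reads was an alternative. The procedure was tested on simulated data for the PLA state and for chronic against transition only. The planted changes were larger than those of the 17 genes in these contrasts, so it does not show how well smaller ones are found. Genes with near-identical copies or overlapping neighbours are uncertain. Named IDs follow the lowest change, the highest level or the widest gap in the PLA; others were named after their values were seen. Some genes are not reported here.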

Additional observations from a re-analysis of the deposited data

Results flagged for a closer look

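Of 36 groups of 6 PLA sheep examined for a value far from the rest, which were each gene and the median of the 17 genes in each state, 1 stood out, and chance marks about 1 in 20 groups. ENSOARG00000000344 was at 2.59 log2 CPM in the PLA of transition sheep D27. The next lowest transition sheep was at 3.27, and the gap was 0.715 of the whole range, against a critical value of 0.625.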

How the results depend on the processing

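The number of genes that met the rule moved with its limits: 4 with a PLA change of -1.0 or lower, 40 with -0.6 or lower, 9 with a paced limit of 0.2 and 36 with PLA columns scaled to equal sums, the last chosen after seeing the data. With 1 PLA sheep left out it was 13 (G32) to 24 (G34), and 15 genes met the rule with C1 left out throughout, of which 5 were among the 17. The model called 9 to 15 of the 17 genes lower in the PLA under all 19 alternatives, and 1431 to 2750 of all genes in either direction. The rule used this contrast, so these counts say nothing beyond the choice of the genes. In the 5 other contrasts 0 of the 17 were called under every alternative run, including those without 1 sheep. Without the replicate block (sheep) the appendage models called 83 whole tissue and 24 cardiomyocyte genes for chronic against transition, and 0 and 1 for the side difference; with sheep as a fixed block the side difference called 8 and 15. None were among the 17. Sample quality weights called 351 whole tissue genes for chronic against transition, and leaving out D23 called 100 in cardiomyocytes; the cause was not tested. With 1 sheep left out the counts over all genes were 0 (D24) to 19 (D19) in whole tissue and 1 to 100 in cardiomyocytes for chronic against transition, and 0 to 10 (D30) and 0 (S4) to 36 (D20) for the side difference. Unknown PLA depth and low cardiomyocyte reads limit precision.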
